A study of Homo sapiens with 12 samples.

Results

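The polyamine synthesis and breakdown genes are 10 genes that were listed by symbol for their place in one pathway: ODC1, AMD1, SRM and SMS for synthesis, SAT1, SMOX and PAOX for breakdown, and OAZ1, OAZ2 and AZIN1 for control of ornithine decarboxylase. The rule uses no measured value, although the list was drawn up with earlier results of these data known, and the 10 symbols were matched to Ensembl identifiers of the 54127 genes in the count tables. All 10 passed the count filter (at least 10 reads in at least 6 libraries) and so were among the 14505 genes tested. RNAseq had been performed on C4-2 cells, an androgen-responsive human prostate cancer line derived from LNCaP, grown in RPMI medium with 10% FBS. The 6 DMSO libraries came from C4-2 cells given the vehicle, and the 6 PBKi libraries from C4-2 cells given 1 µM PBKi (HI-TOPK-032, a compound that inhibits the kinase PBK). The methods of the study give 6 h of treatment. Both groups are the same single cell line with no other genetic change named, and nothing states that replicates were separate cultures, so p-values measure the spread between these libraries, which may be technical. The question addressed here is whether transcripts of polyamine metabolism differed between cells exposed to PBKi and cells exposed to vehicle.

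Putrescine, spermidine and spermine are small positively charged amines that bind nucleic acids and are needed for growth. Ornithine decarboxylase (ODC1) makes putrescine from ornithine, and aminopropyl groups taken from S-adenosylmethionine by AMD1 are added by SRM to give spermidine and by SMS to give spermine. Breakdown starts with acetylation by SAT1 followed by oxidation by PAOX, or with direct oxidation of spermine by SMOX. Antizymes (OAZ1, OAZ2) bind ODC1 and send it to the proteasome, and the antizyme inhibitor AZIN1 takes the antizymes up. Much of this control is on translation and protein turnover, which RNA counts do not show. The prostate secretes polyamines in large amounts, and its luminal cells are known for strong expression of the pathway.

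Depth was 9663203 to 28029908 reads on genes in DMSO libraries and 13122415 to 22817803 in PBKi libraries. DMSO replicate 5 had the fewest reads and was counted in 3 sequencing lanes where every other library had 4. PBKi replicates 3 and 6 had the largest shares of uniquely aligned reads outside genes, 9.30% and 8.83%, against 5.74% to 6.96% in the DMSO libraries. Among the 10 genes, DMSO replicate 5 was the lowest of its group for 3 and the highest for 4, and PBKi replicate 3 was the lowest of its group for 5 and the highest for 2. Markers of luminal prostate epithelium were present in all libraries, KRT8 at a mean of 154 CPM in DMSO and 166 CPM in PBKi (CPM being the read count scaled by library total and TMM factor). The summed CPM of 7 luminal markers (KLK3, KLK2, KRT8, KRT18, FOLH1, HOXB13 and EPCAM) moved with treatment. The sum ran from 4223 to 4897 in DMSO and from 1969 to 2833 in PBKi, mostly through KLK3 (mean 2959 and 1131). Means of KLK2, KRT18, HOXB13 and EPCAM were also lower in PBKi, but that of FOLH1 was higher (506 and 634), as was that of KRT8. The part of these shifts in the results below was not tested. The 4 fibroblast markers summed to 21.1 to 25.5 CPM in DMSO and 19.0 to 24.2 CPM in PBKi, mostly COL1A1, and 2 of 3 endothelial markers to 4.03 to 7.25 CPM and 3.09 to 4.63 CPM, mostly VWF. Basal markers summed to at most 1.73 CPM and leukocyte markers to at most 0.886 CPM in any library.

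The starts of 7 of the 10 genes were in a table of RefSeq promoter sequences (GRCh38.p14), and each 250-base stretch before a start matched GRCh37, the build of the count tables, at 1 place. SMOX, PAOX and AZIN1 had no entry. The stretches of the 4 synthesis genes and SAT1 are shown since ODC1, AMD1 and SMS fell with PBKi, SRM did not pass the test, and SAT1 rose. Each is the longest part of its window outside annotated exons of its gene and runs 5′ to 3′ on its strand. The stretches of AMD1 (235 bases), SRM (248 bases) and the internal start of ODC1 (106 bases) are therefore shorter than their windows. Capitals mark CACGTG (the E-box hexamer) or TATAA (the core of the TATA box) where one was found, in ODC1, AMD1 and SRM, and the SMS and SAT1 stretches hold neither. They are ODC1 before its main start (chr2:10588454-10588703, minus strand), ODC1 within intron 1 before an internal start (chr2:10588141-10588246, minus strand), AMD1 (chr6:111195738-111195972, plus strand), SRM (chr1:11120078-11120325, minus strand), SMS (chrX:21958577-21958826, plus strand) and SAT1 (chrX:23801040-23801289, plus strand).
ODC1 main start: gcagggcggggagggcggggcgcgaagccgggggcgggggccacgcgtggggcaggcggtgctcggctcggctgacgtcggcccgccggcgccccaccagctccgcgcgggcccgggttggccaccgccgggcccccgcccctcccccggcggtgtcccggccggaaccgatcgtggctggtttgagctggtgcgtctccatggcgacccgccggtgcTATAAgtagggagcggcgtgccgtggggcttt
ODC1 internal start: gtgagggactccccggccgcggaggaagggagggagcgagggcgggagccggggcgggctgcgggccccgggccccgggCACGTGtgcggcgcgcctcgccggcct
AMD1: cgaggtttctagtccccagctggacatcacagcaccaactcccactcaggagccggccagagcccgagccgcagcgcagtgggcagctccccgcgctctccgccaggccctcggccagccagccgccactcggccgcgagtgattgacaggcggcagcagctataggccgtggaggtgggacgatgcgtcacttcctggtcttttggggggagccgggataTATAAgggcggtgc
SRM: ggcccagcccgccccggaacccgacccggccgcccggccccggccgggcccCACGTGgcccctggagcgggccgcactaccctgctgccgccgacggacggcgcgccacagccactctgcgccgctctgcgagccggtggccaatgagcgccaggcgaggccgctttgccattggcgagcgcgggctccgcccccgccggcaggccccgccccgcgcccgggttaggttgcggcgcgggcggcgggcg
SMS: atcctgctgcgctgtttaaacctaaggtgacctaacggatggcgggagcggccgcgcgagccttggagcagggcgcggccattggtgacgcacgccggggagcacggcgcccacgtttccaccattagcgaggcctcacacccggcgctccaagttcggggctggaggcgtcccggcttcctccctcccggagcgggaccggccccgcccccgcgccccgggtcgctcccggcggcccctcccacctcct
SAT1: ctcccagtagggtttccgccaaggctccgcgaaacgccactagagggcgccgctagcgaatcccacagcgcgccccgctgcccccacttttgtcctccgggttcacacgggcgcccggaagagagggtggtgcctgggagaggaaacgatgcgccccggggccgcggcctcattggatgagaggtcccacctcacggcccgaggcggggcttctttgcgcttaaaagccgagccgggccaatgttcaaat

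Matches were counted on both strands in the 10 windows of the 7 genes and in all 35116 windows of the table. Distances run to the RefSeq start, which for AMD1, SRM and the internal start of ODC1 lies past the end of the printed stretch. CACGTG occurred in 6.34% of all windows and in 2 windows of these genes, 29 bases before the internal start of ODC1 and 199 bases before the start of SRM. TGACNNNGC, the core of the antioxidant response element, occurred in 10.9% of all windows and in 0 of the 10. TATAA was added after the sequences had been seen, and occurred in 18.9% of all windows. This added motif occurred in 3 of the 10 windows, 1 of ODC1 and 2 overlapping ones of AMD1. It lay 32 bases before the main start of ODC1, and 28 and 29 bases before neighbouring starts of AMD1. Both genes fell with PBKi, but a link of the motif with expression or with the falls was not tested. OAZ1, the highest of the 10 genes per kb, held no match. The full palindrome of the androgen response element, fixed in advance, occurred in 1 of all 35116 windows and in 0 of the 10. SMS, which also fell, held no motif of these in its window, and SRM, which held the hexamer, did not pass the test. A match is a description of letters, and binding was not measured.

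Transcripts of 3 of the 4 synthesis enzymes fell with PBKi, those of SAT1 and SMOX rose, and none of the antizymes or the antizyme inhibitor passed the test of the main fit. OAZ2 passed with a replicate block (adjusted p = 0.0249) and with a term for replicate sets (adjusted p = 0.0355, both edgeR). In the main fit, 5 of the 10 genes had an adjusted p under 0.05 by the quasi-likelihood test of edgeR (Benjamini-Hochberg method over 14505 genes), 2 higher and 3 lower. Over all genes tested, 41.7% were called, 20.1% higher and 21.5% lower, so the share of polyamine genes called (5 of 10) was near the background. With scaling by library totals only, the whole table gave 3602 genes higher and 2402 lower, against 2921 and 3125 with TMM scaling. The calls of the 10 genes held their side of the threshold under that scaling. The median log2 fold change of the 10 genes was -0.12, and that of all genes tested was -0.012. The 5 called genes, and so 5 of the 10, separated the groups with no overlap between libraries. Of all genes tested, called or not, 20.1% did (10.5% with PBKi above and 9.68% with PBKi below). In bulk RNA a lower level in every cell and fewer expressing cells cannot be told apart.

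**Figure D1:**
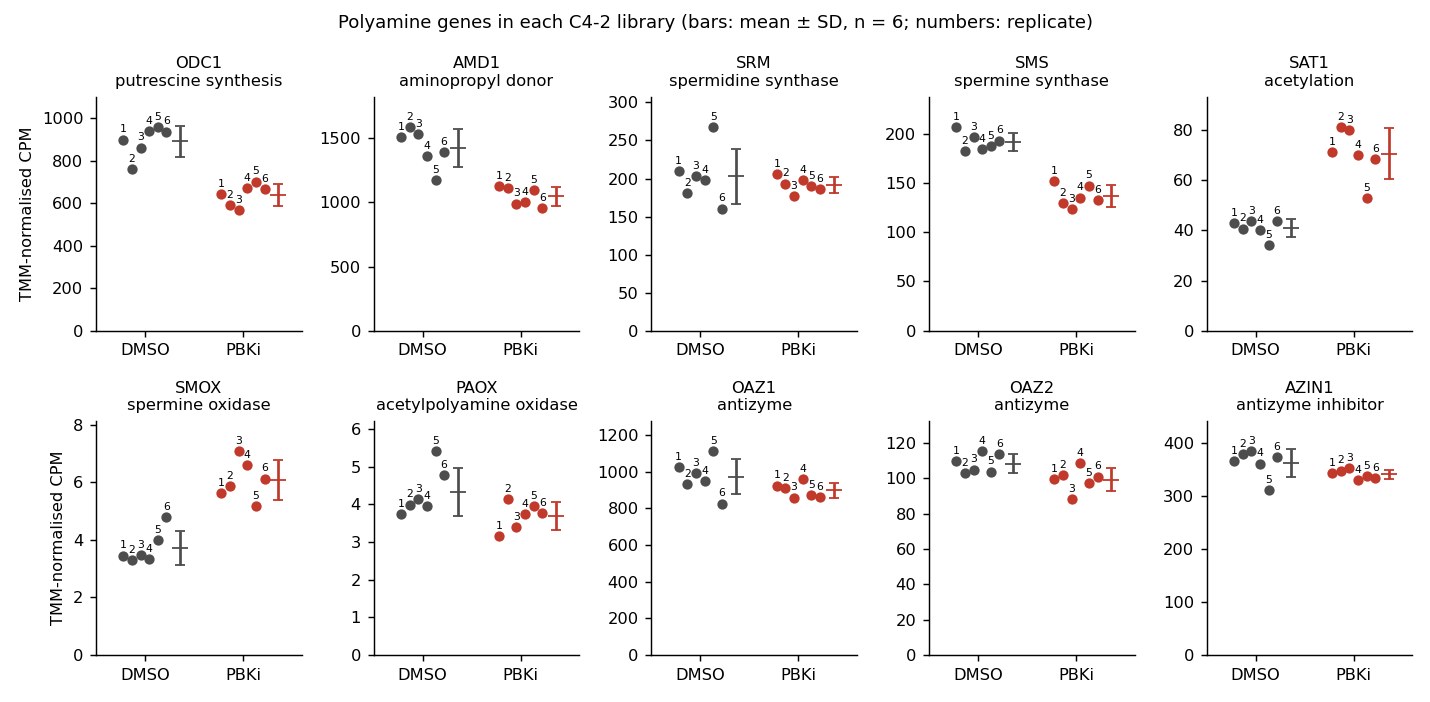
TMM-normalised CPM (y axis, from 0, separate scale for each gene) of the 10 polyamine genes in the 6 DMSO (grey) and 6 PBKi (red) libraries, each point 1 library numbered by replicate, with mean ± SD beside the points. ODC1, AMD1 and SMS lie lower in all 6 PBKi libraries than in any DMSO library, SAT1 and SMOX lie higher, and the groups of the other 5 genes overlap.

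ODC1 (ENSG00000115758, chr2:10580094-10588453, minus strand) encodes the rate-limiting enzyme that makes putrescine. Its normalised level in CPM ran from 761 to 958 in the DMSO libraries with a median of 918. In the PBKi libraries it ran from 567 to 702 with a median of 654. Every PBKi library was thus below every DMSO library. The mean went from 893 ± 73.1 to 640 ± 51.0 CPM (SD, n = 6 each), a change of -28.3% in the mean. The log2 fold change was -0.48 ± 0.066 (SE, edgeR adjusted p = 1.77e-05). Of the 14505 genes tested, 15.5% had a fold change at least as far from 0.

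AMD1 (ENSG00000123505, chr6:111195973-111220082, plus strand), which decarboxylates S-adenosylmethionine to the aminopropyl donor, had the most reads of the 10 genes. DMSO libraries lay between 1177 and 1588 CPM (median 1453) and PBKi libraries between 955 and 1130.0 CPM (median 1048). The lowest DMSO library, replicate 5, was only just above the highest PBKi library, replicate 1, and the groups did not overlap. The means were 1428 ± 149.7 and 1047 ± 74.1 CPM (SD, n = 6 each), and the log2 fold change was -0.45 ± 0.071 (SE, edgeR adjusted p = 7.54e-05). The processed copies of AMD1 with counts in the tables (AMD1P1 to AMD1P4) are near-identical stretches that could share reads with it. The largest count among these copies was 184 reads for AMD1P3 over the 12 libraries, against 247649 reads for AMD1. Reads that aligned to several places were not counted, so these numbers cannot show how many reads AMD1 lost to its copies.

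SRM (ENSG00000116649, chr1:11114641-11120077, minus strand) makes spermidine from putrescine and was the synthesis enzyme that did not pass the test. Its level ran from 160.3 to 268 CPM in DMSO (median 200.7) and from 176.5 to 206 CPM in PBKi (median 191.6). The PBKi range lay wholly inside the DMSO range, whose ends were replicates 6 and 5. The log2 fold change was -0.085 ± 0.089 (SE, edgeR adjusted p = 0.467), with a 95% interval of -0.26 to 0.089 that does not reach the changes of ODC1, AMD1 or SMS. Without DMSO replicate 5 it was 0.011 (adjusted p = 0.901), and adjusted p over the alternatives and left-out libraries ran from 0.176 to 0.901 (edgeR, DESeq2 or limma). The standard deviation was 36.2 CPM in DMSO and 10.2 CPM in PBKi around means of 203 and 191.5 CPM.

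SMS (ENSG00000102172, chrX:21958827-22012955, plus strand), the spermine synthase, had the smallest spread relative to its mean of the 4 synthesis genes in DMSO. DMSO libraries ran from 183 to 207 CPM (median 190.4) and PBKi libraries from 123 to 152 CPM (median 134), with a clear gap between the groups. The means were 192 ± 9.10 CPM in DMSO and 137 ± 10.9 CPM in PBKi (SD, n = 6), and the log2 fold change was -0.49 ± 0.057 (SE, edgeR adjusted p = 2.64e-06). A 2-sided exact permutation test over the libraries gave p = 0.00216 for ODC1, AMD1, SMS, SAT1 and SMOX alike, the smallest value this design allows. Groups that do not overlap always give this value, so it restates the lack of overlap and adds no further support. In each of these 5 genes all 6 PBKi libraries lay on the same side of the DMSO libraries. None of the 3 falls reached an absolute log2 fold change of 0.5, so with that threshold added SAT1 and SMOX were the only calls among the 10 genes. That threshold left 8.81% of all genes higher and 4.32% lower.

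SAT1 (ENSG00000130066, chrX:23801290-23804327, plus strand), which acetylates spermidine and spermine and is highly inducible, showed the largest fold change of the 10 genes. DMSO libraries lay between 34.3 and 43.9 CPM (median 41.8) and PBKi libraries between 53.0 and 81.3 CPM (median 70.7). PBKi replicate 5 was the lowest of its group and still above every DMSO library. The mean went from 40.9 ± 3.60 to 70.7 ± 10.2 CPM (SD, n = 6 each), 1.73 times the DMSO mean, and the log2 fold change was 0.78 ± 0.088 (SE, edgeR adjusted p = 2.02e-06). Fold changes at least as far from 0 were found in 6.24% of all genes tested.

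SMOX (ENSG00000088826, chr20:4101627-4168394, plus strand), the spermine oxidase, was the least expressed of the 10 genes per kb in DMSO. It had 37 to 96 reads per DMSO library and 75 to 167 reads per PBKi library. These reads gave 3.29 to 4.78 CPM (median 3.46) in DMSO and 5.17 to 7.08 CPM (median 6.00) in PBKi, and the groups did not overlap. At this depth the nearest libraries were not separated by counting error alone, since the 95% Poisson interval of PBKi replicate 5, 4.08 to 6.46 CPM, held the value of DMSO replicate 6. The means were 3.72 ± 0.581 and 6.08 ± 0.684 CPM (SD, n = 6 each), and the log2 fold change was 0.74 ± 0.12 (SE, edgeR adjusted p = 6.97e-05).

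PAOX (ENSG00000148832, chr10:135192765-135205198, plus strand), which oxidises the acetylated polyamines that SAT1 makes, did not pass the test. It ran from 3.74 to 5.41 CPM in DMSO (median 4.07) and from 3.16 to 4.15 CPM in PBKi (median 3.76), with overlap. The log2 fold change was -0.21 ± 0.12 (SE, edgeR adjusted p = 0.156), with a 95% interval of -0.44 to 0.017. Counts were 50 to 115 reads per DMSO library and 42 to 84 per PBKi library. Of the PAOX exon bases, 61.0% are shared with ENSG00000254536 on the same strand, and reads on shared bases can be left out of both genes by the counting, so the PAOX level is uncertain.

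**Figure D2:**
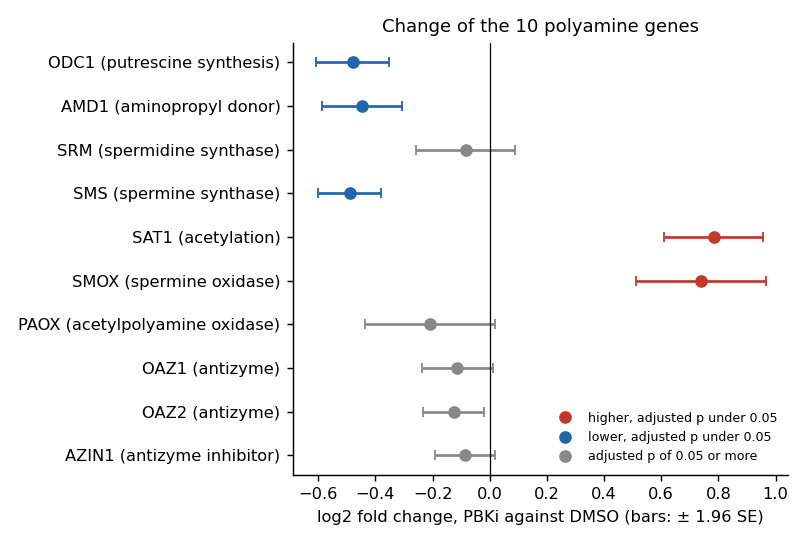
Log2 fold change of PBKi against DMSO (x axis, bars: 95% interval) for each of the 10 polyamine genes from the edgeR fit of 6 against 6 libraries, red for higher and blue for lower at an adjusted p under 0.05, grey otherwise. The points of ODC1, AMD1 and SMS lie close together at -0.48, -0.45 and -0.49, those of SAT1 and SMOX at 0.78 and 0.74, and the other 5 between -0.21 and -0.085.

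OAZ1 (ENSG00000104904, chr19:2269508-2273489, plus strand), the main antizyme, whose protein is made by a polyamine-driven ribosomal frameshift, did not pass the test. Its DMSO libraries ran from 825 to 1109 CPM (median 969.6) and its PBKi libraries from 858 to 957 CPM (median 891), the second range inside the first. The log2 fold change was -0.11 ± 0.063 (SE, edgeR adjusted p = 0.157), with a 95% interval of -0.24 to 0.0095. Without DMSO replicate 6, the lowest of its group, it was -0.14 (adjusted p = 0.0376), within a range of adjusted p from 0.0376 to 0.552 over the alternatives and left-out libraries. On the opposite strand JSRP1, with 4 reads in all, overlaps 6.87% of the OAZ1 exon bases. Whether the counting used strand is not given, so OAZ1 reads on these bases may have been left out.

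OAZ2 (ENSG00000180304, chr15:64979772-64995480, minus strand), a second antizyme, lay between 103 and 115 CPM in DMSO (median 107) and between 88.0 and 108 CPM in PBKi (median 100.1). The groups overlapped, with PBKi replicate 3 the lowest library and DMSO replicate 4 the highest. The log2 fold change was -0.13 ± 0.054 (SE, edgeR adjusted p = 0.0712), and the unadjusted 2-sided exact permutation test gave p = 0.0238. The edgeR fit with a term for replicates 1 to 3 against 4 to 6 gave an adjusted p = 0.0355 at a log2 fold change of -0.13, within a range of adjusted p from 0.0249 to 0.346 over the alternatives.

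AZIN1 (ENSG00000155096, chr8:103838339-103906092, minus strand), an ODC1 homologue without decarboxylase activity that binds antizymes, ran from 311 to 385 CPM in DMSO (median 370.3) and from 331 to 354 CPM in PBKi (median 341). One library set the lower end in DMSO, replicate 5, and the other 5 DMSO libraries were all above the PBKi libraries. The log2 fold change was -0.087 ± 0.053 (SE, edgeR adjusted p = 0.200) with all libraries and -0.12 (adjusted p = 0.0226) without DMSO replicate 5, within a range of adjusted p from 0.0226 to 0.656. Both sizes are far below those of the 5 called genes. Thus for OAZ1, OAZ2 and AZIN1 the 95% intervals allowed falls of at most 0.24 on the log2 scale. Their lower ends were -0.24, -0.23 and -0.19.

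Ratios of read counts of a pair of these genes within a library need no scaling factor, and are given as a description with no test. The ratio of ODC1 to OAZ1, the enzyme against its main inhibitor, ran from 0.819 to 1.14 in DMSO and from 0.651 to 0.805 in PBKi, with no overlap. Its mean went from 0.926 ± 0.118 to 0.714 ± 0.0615 (SD, n = 6 each). By contrast, the ratio of AZIN1 to OAZ1 overlapped, at 0.281 to 0.453 in DMSO and 0.346 to 0.412 in PBKi, and so did OAZ1 to OAZ2, at 7.26 to 10.7 and 8.53 to 9.75. Between the rate-limiting steps of breakdown and synthesis, SAT1 to ODC1 had a mean of 0.0462 ± 0.00632 in DMSO and 0.112 ± 0.0243 in PBKi (SD, n = 6 each), which is 2.43 times as high. No PBKi library (0.0755 to 0.141) overlapped the DMSO libraries (0.0358 to 0.0536) in that ratio.

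For the oxidases, SMOX to PAOX went from 0.740 to 1.00 in DMSO to 1.31 to 2.09 in PBKi, so reads of SMOX did not outnumber those of PAOX in any DMSO library and did so in all 6 PBKi libraries. The uncertainty in the PAOX count applies to this ratio too. SMS to SRM, both aminopropyl transferases, had means of 0.967 ± 0.162 in DMSO and 0.714 ± 0.0385 in PBKi (SD, n = 6 each). These groups overlapped through DMSO replicate 5 alone, which was at 0.701. Without it the DMSO libraries ran from 0.929 to 1.21, all above the highest PBKi library at 0.777.

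**Figure D3:**
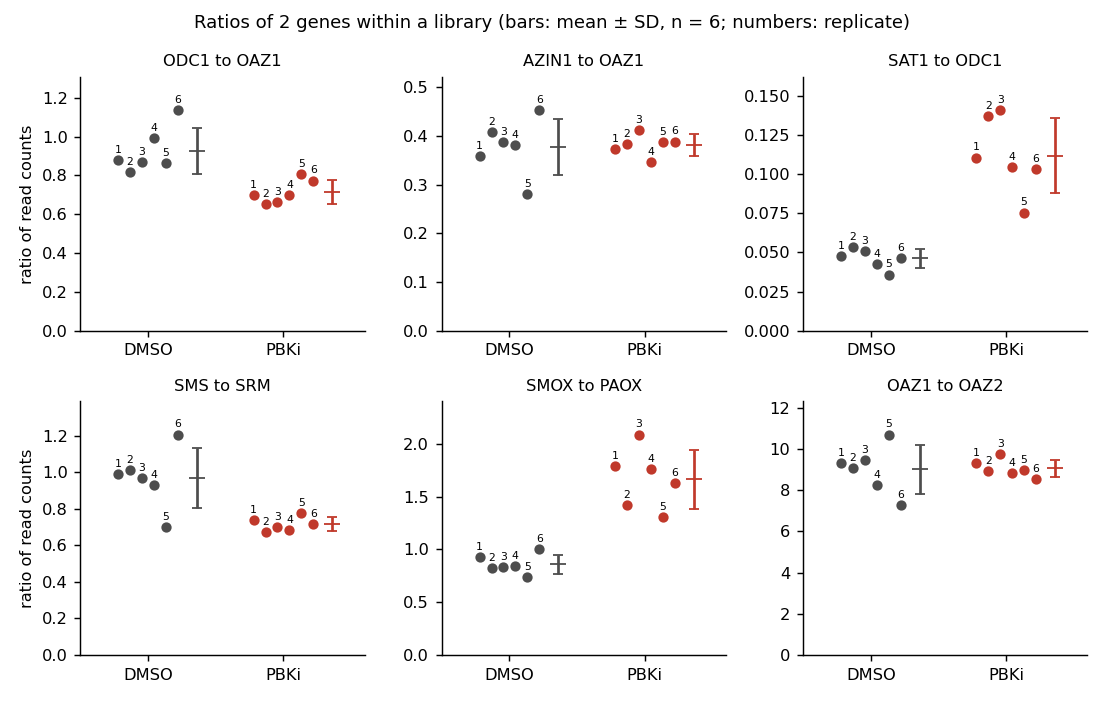
Ratio of read counts of a pair of polyamine genes (y axis, from 0) in each DMSO (grey) and PBKi (red) library, numbered by replicate, with mean ± SD beside the points. ODC1 to OAZ1 is lower in all PBKi libraries, SAT1 to ODC1 and SMOX to PAOX are higher, AZIN1 to OAZ1 and OAZ1 to OAZ2 overlap, and SMS to SRM overlaps through DMSO replicate 5.

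Levels of different genes were compared per length, as CPM per kb of all annotated exons joined. In DMSO the order was OAZ1 (283 ± 27.9), ODC1 (270.0 ± 22.1), AMD1 (140.1 ± 14.7), SRM (107 ± 19.1), SMS (90.1 ± 4.27), AZIN1 (59.2 ± 4.33), SAT1 (16.5 ± 1.45), OAZ2 (14.1 ± 0.696), PAOX (1.93 ± 0.281) and SMOX (1.26 ± 0.197), each as mean ± SD over 6 libraries. Neighbours whose DMSO libraries overlapped on this scale were OAZ1 and ODC1, AMD1 and SRM, SRM and SMS, and SAT1 and OAZ2. On this length the lowest synthesis gene in PBKi was SMS at 64.2 ± 5.13 CPM per kb and the highest breakdown gene SAT1 at 28.5 ± 4.09. Per kb of the canonical transcript, a length chosen after seeing the data, they were closer, at 80.3 ± 6.42 and 67.4 ± 9.69 in PBKi.

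With PBKi the order of the group means on the joined exons changed at its lower end, where SMOX (2.06 CPM per kb) came above PAOX (1.64). Libraries of these oxidases overlapped in PBKi, at 1.75 to 2.40 and 1.40 to 1.84 CPM per kb, but not in DMSO, at 1.12 to 1.62 and 1.66 to 2.40. The choice of length mattered for other neighbours. Per kb of the canonical transcript OAZ1 (846 ± 83.6) stood apart from ODC1 (361 ± 29.5) in DMSO, AMD1 (417) came above ODC1, and OAZ2 (56.0) above SAT1 (39.0). On that length AZIN1 (81.5 ± 2.05) came above SMS (80.3 ± 6.42), by less than the SD of SMS, and SAT1 (67.4) above OAZ2 (51.3) in PBKi, exchanges between groups that the joined exons did not show. The exchange of SMOX and PAOX between groups was found with both lengths. Neither length addresses the uncertainty in the PAOX count, so the order of these oxidases is uncertain too.

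**Figure D4:**
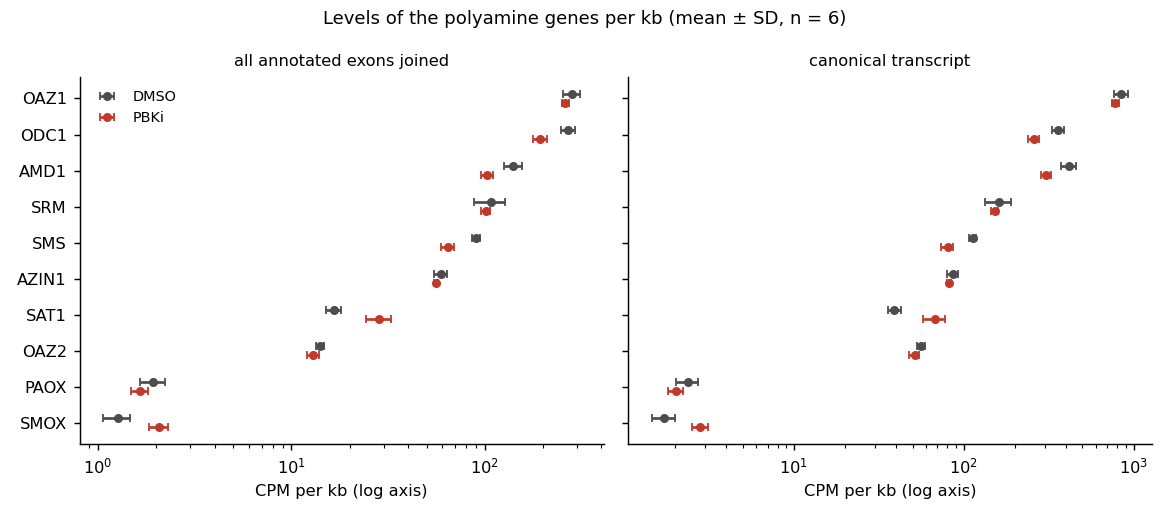
Mean ± SD (n = 6) of CPM per kb on a log x axis for each polyamine gene in DMSO (grey) and PBKi (red), using the joined length of all annotated exons in one panel and the canonical transcript in the other. Genes are ordered by the DMSO mean on the joined exons, from OAZ1 at 283 to SMOX at 1.26 CPM per kb, and SMOX lies above PAOX in PBKi only. The PAOX level is uncertain because of its shared exon bases.

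Pathways that feed, move or use polyamines were read from a list of 40 further genes, of which 32 passed the count filter. With PBKi 8 of the 32 were higher, 13 were lower and 11 did not pass, with a median log2 fold change of -0.085, against 20.1% higher and 21.5% lower and a median of -0.012 over all genes tested. The count of 13 rested in part on small falls: it was 8 without PBKi replicate 3, 8 without PBKi replicate 6 and 8 with scaling by library totals only, and in all 3 settings MAT2B, EIF5A, ADI1, ALDH18A1 and SLC25A15 were the lower genes that lost their calls. None of the 21 called genes turned direction in these settings. Without PBKi replicate 3, 2 of the higher genes, SLC18B1 and SLC47A2, lost their calls as well, and without PBKi replicate 6 SLC18B1 did. Genes below the filter included ARG1, AGMAT, SLC25A2, AOC1, ATP13A4, SLC22A2 and SLC22A16, and SLC25A2 had 0 reads in every library.

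Of the 7 tested genes listed for ornithine and arginine supply, 5 fell, and AZIN2 (-0.21) and ASL (0.14) did not pass the test. Over all genes tested 21.5% were lower, and a difference from that share was not tested. AZIN2 is an antizyme inhibitor like AZIN1 rather than a supply gene. Its estimate was imprecise (SE 0.21), at means of 1.09 CPM in DMSO and 0.932 CPM in PBKi. OAT, the mitochondrial aminotransferase that interconverts ornithine and glutamate semialdehyde, went from 52.2 ± 5.19 to 33.2 ± 3.49 CPM (SD, n = 6 each), with DMSO libraries at 42.6 to 56.8 and PBKi libraries at 27.9 to 37.4 (log2 fold change -0.66 ± 0.078, SE, with an edgeR adjusted p = 3.89e-06). ASS1, which makes argininosuccinate on the way to arginine, also separated the groups, at 115.0 to 151 CPM in DMSO and 86.6 to 114.8 CPM in PBKi (log2 fold change -0.38). Smaller falls with overlapping groups were found in ARG2 (-0.33), the mitochondrial arginase, ALDH18A1 (-0.15), which starts ornithine synthesis from glutamate, and SLC25A15 (-0.15), the mitochondrial ornithine carrier. Both ALDH18A1 and SLC25A15 are among the genes whose calls were lost in the 3 settings above.

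S-adenosylmethionine supply was split. MAT1A, the methionine adenosyltransferase typical of liver, rose from 2.95 ± 0.460 to 9.99 ± 1.25 CPM (SD, n = 6 each), and the log2 fold change was 1.76 ± 0.12 (SE, edgeR adjusted p = 4.17e-09), with no overlap between libraries. MAT2A, the catalytic subunit of most other tissues, did not pass the test (367 ± 40.5 and 346 ± 20.2 CPM, log2 fold change -0.087). Its regulatory subunit MAT2B fell by 0.19 on the log2 scale. In methylthioadenosine salvage, which recycles the by-product of both aminopropyl transferases, APIP (-0.47) and ADI1 (-0.18) fell, and MTAP (-0.084), MRI1 (-0.050) and ENOPH1 (-0.063) did not pass.

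SAT2, a relative of SAT1 that acts mainly on thialysine, rose from 40.5 ± 3.07 to 49.1 ± 2.92 CPM with no overlap (log2 fold change 0.28 ± 0.060, SE, with an edgeR adjusted p = 0.00137). OAZ3, an antizyme known from testis, and SATL1 did not pass the test.

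Transport genes moved in both directions, with 5 of 10 tested higher and 3 lower, against 20.1% and 21.5% of all genes tested. SLC3A2, the heavy chain of several amino acid exchangers that has also been linked to putrescine export, rose from 270.3 ± 18.9 to 450.3 ± 28.3 CPM (log2 fold change 0.74 ± 0.058, SE, with an edgeR adjusted p = 2.66e-08), and its libraries ran from 249.6 to 295 in DMSO and from 413 to 495 in PBKi. SLC47A1 (1.52) and SLC47A2 (0.91), organic cation extruders, also rose, but from 0.357 and 0.524 CPM, which is a few reads per library. At no more than 0.549 CPM in DMSO, SLC47A1 could pass the count filter only through the PBKi libraries. SLC47A2 was at 0.138 CPM in its lowest DMSO library, so it also needed PBKi libraries to pass. Both are counted among the 5 higher transport genes and the 8 higher genes of the wider list. No library held more than 37 reads of SLC47A1 or 32 of SLC47A2. With a filter of 50 counts neither was tested, and 6 genes of the wider list were higher and 9 lower. Without a count filter 6 were higher and 11 lower. SLC12A8 (0.16) and SLC18B1 (0.14, a vesicular polyamine transporter) rose by less. SLC22A3, an organic cation transporter, fell from 4.41 ± 0.893 to 1.82 ± 0.519 CPM (log2 fold change -1.31 ± 0.18, SE, with an edgeR adjusted p = 1.93e-05). The cationic amino acid transporter SLC7A2 (-0.59) and ATP13A3 (-0.22), a polyamine-transporting ATPase, fell as well. SLC7A1, a carrier of arginine and ornithine, was at 865 ± 119.5 and 871 ± 74.4 CPM, with overlapping libraries and a log2 fold change of 0.012.

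Spermidine is also the donor for hypusine, a modified lysine of the translation factor EIF5A. EIF5A (-0.22) and DHPS (-0.29), the deoxyhypusine synthase, fell, DOHH (0.37), the hydroxylase that completes hypusine, rose, and EIF5A2 (-0.19) did not pass the test. DHPS separated the groups, at 62.9 to 70.1 CPM in DMSO and 51.5 to 60.0 CPM in PBKi, and the other hypusine genes overlapped.

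**Figure D5:**
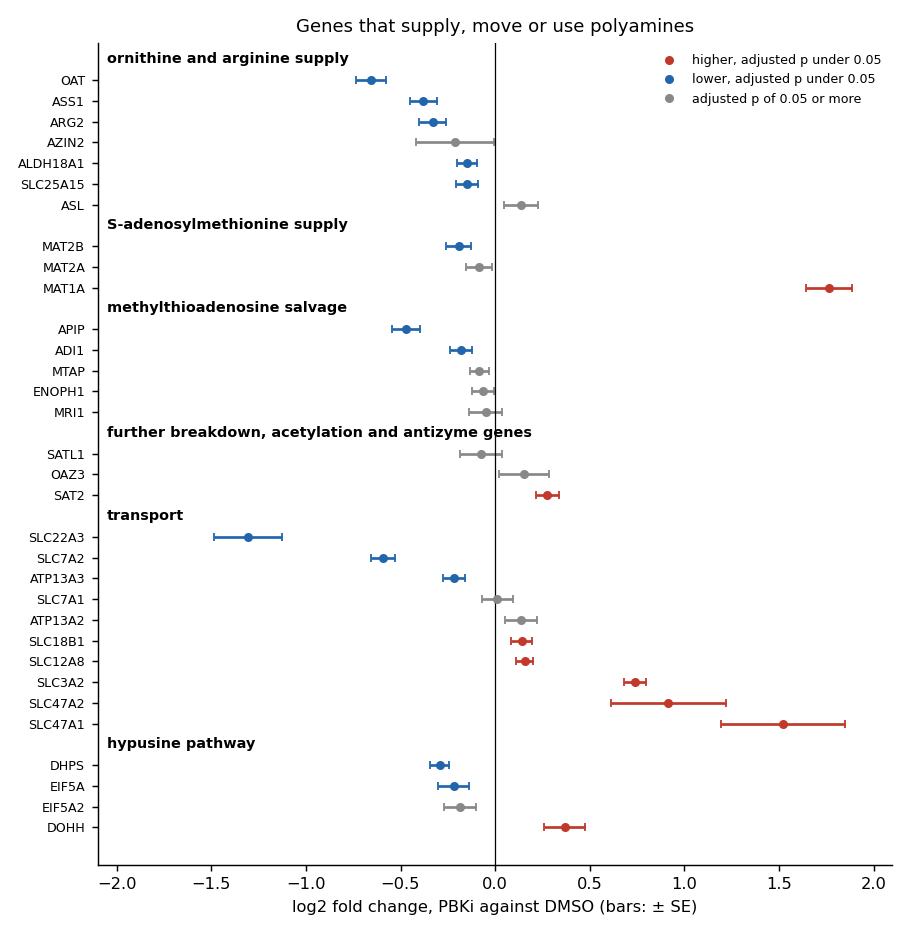
Log2 fold change of PBKi against DMSO (x axis, bars ± 1 standard error, edgeR fit of 6 against 6 libraries) for the 32 tested genes that supply, move or use polyamines, grouped by role, red for higher and blue for lower at an adjusted p under 0.05 and grey otherwise. All called genes for ornithine and arginine supply lie below 0, MAT1A at 1.76 and SLC22A3 at -1.31 are the extremes, and transport genes lie on both sides.

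The 10 polyamine genes were also read in replicates 1 to 3 and 4 to 6 apart (n = 3 per group in each). The log2 fold changes in these sets were -0.47 and -0.48 for ODC1, -0.51 and -0.37 for AMD1, -0.53 and -0.44 for SMS, 0.88 and 0.70 for SAT1, and 0.89 and 0.58 for SMOX. All 5 genes thus kept their direction in both sets, and their adjusted p stayed under 0.05, the highest being 0.0428 for SMOX in replicates 4 to 6 (edgeR). The other 5 genes passed in neither set, and their values ran from -0.28 to -0.036. A difference between the sets was not tested.

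Genes whose pattern over the 12 libraries was nearest to that of ODC1 and SAT1 were found among 9990 genes by the root mean square difference of log2 CPM, each gene centred on its DMSO mean. For ODC1 these were EMP2 (0.056), CA12 (0.067) and FBL (0.073), which encode a membrane protein, a carbonic anhydrase and the nucleolar RNA methyltransferase fibrillarin. EMP2 went from 62.4 to 44.6 CPM, CA12 from 69.8 to 49.6 and FBL from 289 to 213 on the means of each group. For SAT1 they were IDH1 (0.092), SLC38A6 (0.095) and JAK2 (0.10), which encode the cytosolic isocitrate dehydrogenase, an amino acid transporter and a cytokine receptor kinase. IDH1 went from 482 to 799 CPM, SLC38A6 from 11.2 to 19.8 and JAK2 from 16.7 to 27.9. Genes were chosen by this likeness, which a shared shift between groups largely sets, so their changes are a description.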

How the data were processed

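The authors aligned single-end 40-base reads to GRCh37 with TopHat 2.0.4 and deposited raw gene-level read counts made with HTSeq-count 0.5.3p9 for each sequencing lane, 47 lane files of 54127 genes, with no normalisation (the study then tested with DESeq 1.10.1). The labels and the methods name different RNA extraction kits. Reads that aligned to several places (26.7% to 29.3% of alignments) and reads on more than 1 gene (3.87% to 4.35% of uniquely aligned reads) were not in the gene counts, and whether strand was used is not given in the sources used here. Here lane counts were summed per library, giving 9663203 to 28029908 reads on genes. Rows that name no gene stayed out of totals. Reads outside genes were 5.74% to 9.30% of uniquely aligned reads. Replicates differed beyond sampling noise (a chi-square of 3.78 to 22.9 for each degree of freedom over 30 pairs). Each was counted as 1 sample, but this spread may be technical and does not show that replicates were separate cultures.

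The 14505 genes that reached 10 counts in 6 or more libraries were tested with TMM scaling and the quasi-likelihood test of edgeR 4.0.16 in R 4.3.3, PBKi against DMSO with no covariate, and Benjamini-Hochberg adjustment at 0.05 over all genes tested. Standard errors came from the fold change and its F statistic, and 95% intervals took the estimate as normal. For exact permutation tests, CPM were put on the log2 scale after adding a prior count of 2. Counts were simulated for 6 against 6 libraries and 14360 genes, with 99 genes changed by 0.5 on the log2 scale and 99 by 1. Of these, 61.6% and 91.9% were recovered, and 5.59% of calls were of unchanged genes. Far fewer genes were changed there than were called in the data (41.7%), so these rates do not give the power of the test here.

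The 10 genes, the list of 40 further genes and the markers were chosen with earlier results of these data known. Some listed genes are not reported here. Genes named are the 10, members of the wider list that passed or whose role was needed, and for ODC1 and SAT1 the 3 genes of mean log2 CPM of at least 3 with the nearest pattern. Symbols matched 47098 of the 54127 identifiers. Coordinates and exon lengths came from GENCODE 44 mapped to GRCh37, whereas the authors used Ensembl 64. Intervals for single libraries are exact Poisson limits and cover counting error only.

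Alternatives were DESeq2 1.42.0, limma-voom (limma 3.58.1), RLE factors, library totals, other count filters, lanes 6 to 8, a replicate block, replicate sets, stricter thresholds and leaving out libraries. Replicate numbers are shared between groups in the labels, with no statement that they pair the samples.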

Additional observations from a re-analysis of the deposited data

Results flagged for a closer look

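AZIN1 in DMSO replicate 5, the library with the fewest reads, was at 311.4 CPM, while the other 5 DMSO libraries lay between 361.8 and 384.7 CPM. Its gap to the nearest library was 0.688 of the whole range of the group, above the 95% critical value of Dixon's test for 6 samples. It was the only one of 36 groups of values examined to pass, or 2.78%, where chance gives about 1 in 20. Without this library the AZIN1 log2 fold change was -0.12 in place of -0.087.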

How the results depend on the processing

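The calls of ODC1, AMD1, SMS, SAT1 and SMOX kept their direction and stayed past the threshold in the 12 fits that each left out 1 library and in 12 other fits. With libraries left out, log2 fold changes ran from -0.51 to -0.44 for ODC1, -0.49 to -0.41 for AMD1, -0.51 to -0.45 for SMS, 0.74 to 0.87 for SAT1 and 0.70 to 0.83 for SMOX. In the other fits they ran from -0.48 to -0.43, -0.51 to -0.37, -0.53 to -0.43, 0.70 to 0.88 and 0.58 to 0.89. Of the values of the 10 genes under alternatives, 235 kept their direction and side of the threshold, 4 passed it (OAZ2 with the replicate block and with the term for replicate sets, OAZ1 without DMSO replicate 6, AZIN1 without DMSO replicate 5) and 1 reversed, SRM at 0.011 without DMSO replicate 5.

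Leaving out 1 library gave 2 polyamine genes higher and 3 to 4 lower, 6 to 10 genes of the wider list higher and 8 to 13 lower, and 2531 to 3341 of all genes higher and 2586 to 3213 lower. With scaling by library totals 8 genes of the wider list were lower. Replicates 4 to 6 alone gave 1303 of all genes higher and 1216 lower, and 2 and 6 of the wider list, whereas replicates 1 to 3 alone, at the same n, gave 3376 and 3184, and 8 and 13. Without PBKi replicates 3 and 6, 2004 of all genes were lower, and 5 genes of the wider list were higher and 8 lower. An adjusted p under 0.01 gave 2073 of all genes lower, and 4 higher and 8 lower of the wider list. In another setting, an adjusted p under 0.05 was joined with a fold change of 0.5 or more on the log2 scale, in either direction. That gave 1278 of all genes higher and 626 lower, 0 polyamine genes lower, and 4 higher and 3 lower of the wider list. Stricter thresholds by construction call fewer genes, and the cause of the other changes was not tested.

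Same-numbered libraries correlated in their deviations from group means at 0.205, 0.108, 0.256, 0.299, 0.0887 and 0.234 for replicates 1 to 6. All were positive, and those of replicates 1, 3, 4 and 6 were above any with another number. The value for replicate 5 is under 0.1, and replicates 2 and 5 correlated better with another number (0.1996 and 0.2025). The numbers were therefore not taken to pair the samples, although same-numbered libraries may share a part of their spread. With the replicate number as a block, 3485 of all genes were higher and 3803 lower, 2 polyamine genes were higher and 4 lower, and 8 genes of the wider list were higher and 14 lower. The added polyamine gene was OAZ2 (-0.13, adjusted p = 0.0249, edgeR). A term for replicates 1 to 3 against 4 to 6 gave 3349 of all genes higher and 3696 lower, and OAZ2 passed there too. Depth limits SMOX and PAOX most, at 37 to 167 and 42 to 115 reads per library.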
